A study of Mus musculus with 6 samples.

Results

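The clustered protocadherins are cell-surface adhesion proteins encoded in 3 neighbouring gene clusters, called alpha, beta and gamma. The members were the rows of the gene tables whose gene name is that of an alpha, beta or gamma protocadherin, the C-type members included. This rule found 59 of the 46517 gene IDs listed, with 15 rows in the alpha cluster, 22 in the beta cluster and 22 in the gamma cluster.

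Each alpha or gamma gene has its own promoter and large first exon, which is spliced to constant exons that the whole cluster uses, so members differ outside the cell and are alike in their cytoplasmic end. Beta genes carry their reading frame in a single large exon and have no constant exons. In mammalian neurons each cell expresses its own combination of members, chosen largely at random among the promoters, with CTCF and cohesin bringing a promoter to a distant enhancer and promoter methylation keeping others silent. The proteins bind like to like between membranes, which lets the branches of a neuron recognise and avoid each other. The C-type genes Pcdhac1, Pcdhac2, Pcdhgc3, Pcdhgc4 and Pcdhgc5 are regulated apart from this random choice.

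RNA was sequenced from wild-type E14TG2a, a mouse embryonic stem cell line derived from a blastocyst, at 3 stages with 2 libraries each, and no group received another treatment or a genetic change. The mESC group was stem cells kept on gelatin, with no feeder cells, in serum medium with LIF, the cytokine that holds them undifferentiated. The NPC group (neuronal progenitors) and the NC group came from the same line by a published protocol for making neurons, and NC, which the labels do not spell out, was taken as the last stage, described in the design as glutamatergic pyramidal neurons at the end of differentiation. All 6 samples carry the cell type label of embryonic stem cells, so groups were taken from the titles. The labels call the libraries biological replicates but do not say that libraries with the same number share a culture or a day. Where 2 values are given for a stage, replicate 1 comes first.

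An estimated 1.57 to 2.27 Gb of aligned bases lay behind each library. Pou5f1, a pluripotency factor, was at 1475 and 1891 TPM in mESC, at 0.765 and 1.08 TPM in NPC and listed at 0 in NC. The summed TPM of 11 neuronal genes was 255 and 318 in the mESC libraries, 700 and 1038 in the NPC libraries, and 4068 and 3829 in the NC libraries. The sum of 7 neural progenitor genes did not peak in NPC. It was 195 and 259 TPM for mESC, 1503 and 1564 TPM for NPC, and 2510 and 1707 TPM for NC. Vim, at 1385 and 1354 TPM, and Fabp7, at 792 and 164 TPM, made up most of the NC sum and were higher there than in NPC. Pax6, Hes5, Sox3 and Sox1 were lower in both NC libraries than in both NPC libraries, and Nes overlapped. Pax6 was at 257 and 181 TPM in NPC and at 78.5 and 33.5 TPM in NC. In NC the glutamate transporter gene Slc17a6 was at 28.9 and 21.6 TPM. Slc17a7, which marks cortical pyramidal neurons, was at 3.21 and 1.69 TPM in NC, overlapping its 2.86 and 2.07 TPM in mESC. Gad1 and Gad2, which make GABA, were at 89.8 and 102 TPM and at 73.0 and 75.4 TPM in NC. These are bulk samples, so fewer cells of a type and less RNA per cell cannot be told apart.

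All members lie on the plus strand of mouse chromosome 18 (mm10). The alpha cluster spans 257.5 kb (chr18:36930184-37187661), the beta cluster 259.5 kb (chr18:37264938-37524479) and the gamma cluster 180.1 kb (chr18:37661793-37841873). In the GENCODE vM21 annotation, whose gene spans equal those of the tables for all 59 members, the alpha constant exons hold 59, 89 and 2712 bases and the gamma constant exons 59, 89 and 1968 bases. The share of exonic bases that a member has in common with another member had a median of 53.4% in alpha, without its read-through row, and 44.7% in gamma, and ran from 0 to 9.67% in beta. A read from a constant exon does not show which alpha or gamma member it came from, so the level of such a member rests in part on how StringTie, the program that estimated abundance, divided those reads. The summed level of a cluster depends less on that division, but is not free of it, since the models differ in length (5206 to 7535 exonic bases in alpha without the read-through, 4615 to 7627 in gamma) and TPM is scaled to length. The levels of the beta members depend on it least.

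Some rows carry names that differ from other annotations. The gene ENSMUSG00000023036.13, listed as a further Pcdhga8, is Pcdhgc4 in vM21 and is called Pcdhgc4 here. The gene ENSMUSG00000007440.10, listed as Pcdha11, lies where RefSeq has Pcdha10 and is called Pcdha10 here. A further Pcdha4 row is the alpha to gamma read-through model Gm42416, which was listed at 0 in all 6 libraries. Pcdhgb8 is annotated in vM21 as a polymorphic pseudogene.

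The alpha and beta clusters were close to silent in mESC and the gamma cluster was not. The summed level of the alpha cluster was 0.587 and 0.753 TPM in mESC, 8.30 and 15.5 TPM in NPC, and 51.7 and 66.1 TPM in NC. The beta cluster summed to 0.819 and 0.882 TPM in mESC, 75.2 and 121 TPM in NPC, and 304 and 376 TPM in NC. The gamma cluster summed to 94.0 and 64.8 TPM in mESC, 139 and 156 TPM in NPC, and 516 and 386 TPM in NC. In each cluster both libraries of a later stage lay above both libraries of every earlier stage. Of the family's summed TPM, gamma RNA made up 98.5% and 97.5% in the mESC libraries, 62.6% and 53.3% in the NPC libraries, and 59.2% and 46.6% in the NC libraries.

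**Figure D1:**
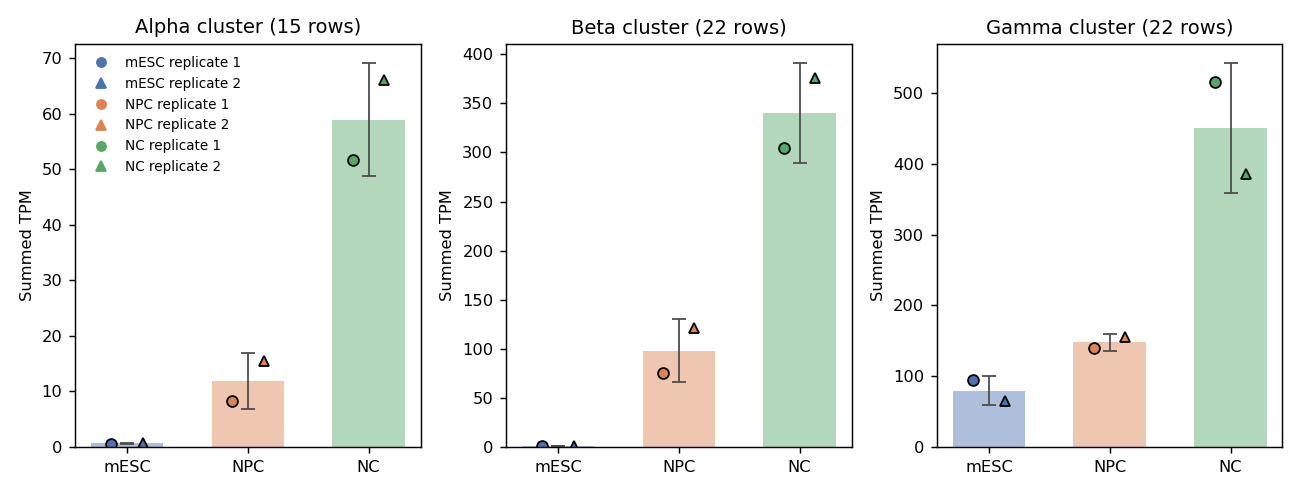
Summed TPM of the rows of each cluster (y axis, linear from 0) at the 3 stages (x axis). Bars are stage means with SD (n = 2) and points are libraries; the alpha and beta bars in mESC, at 0.670 ± 0.117 and 0.850 ± 0.0452 TPM, are barely visible, while the gamma bar in mESC stands at 79.4 ± 20.6 TPM.

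By ratios of stage means, the alpha sum was 17.8 times as high in NPC as in mESC and 4.95 times as high in NC as in NPC. The beta sum was 115 times as high in NPC as in mESC and 3.47 times as high in NC as in NPC. The gamma sum was 1.86 times as high in NPC as in mESC and 3.05 times as high in NC as in NPC. The ratios against mESC in alpha and beta rest on levels below 1 TPM and are imprecise. These sums were not tested; with 2 libraries a stage, the smallest p of a two-sided exact permutation test over samples is 0.333.

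The number of the 59 rows at 1 TPM or more was 21 and 16 in the mESC libraries, 41 and 49 in the NPC libraries, and 53 and 56 in the NC libraries. In mESC all of these were gamma members: 21 and 16 of the 22 gamma rows reached 1 TPM, against 0 of the 15 alpha rows and 0 of the 22 beta rows. The highest alpha level in mESC was that of Pcdha12, at 0.395 TPM in replicate 2, and the highest beta level that of Pcdhb22, at 0.343 TPM in replicate 1. Even the best covered alpha member had a mean read depth of only 0.446 in mESC, against 2.00 in NPC and 7.55 in NC, while the best covered gamma member reached 16.7 in mESC.

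**Figure D2:**
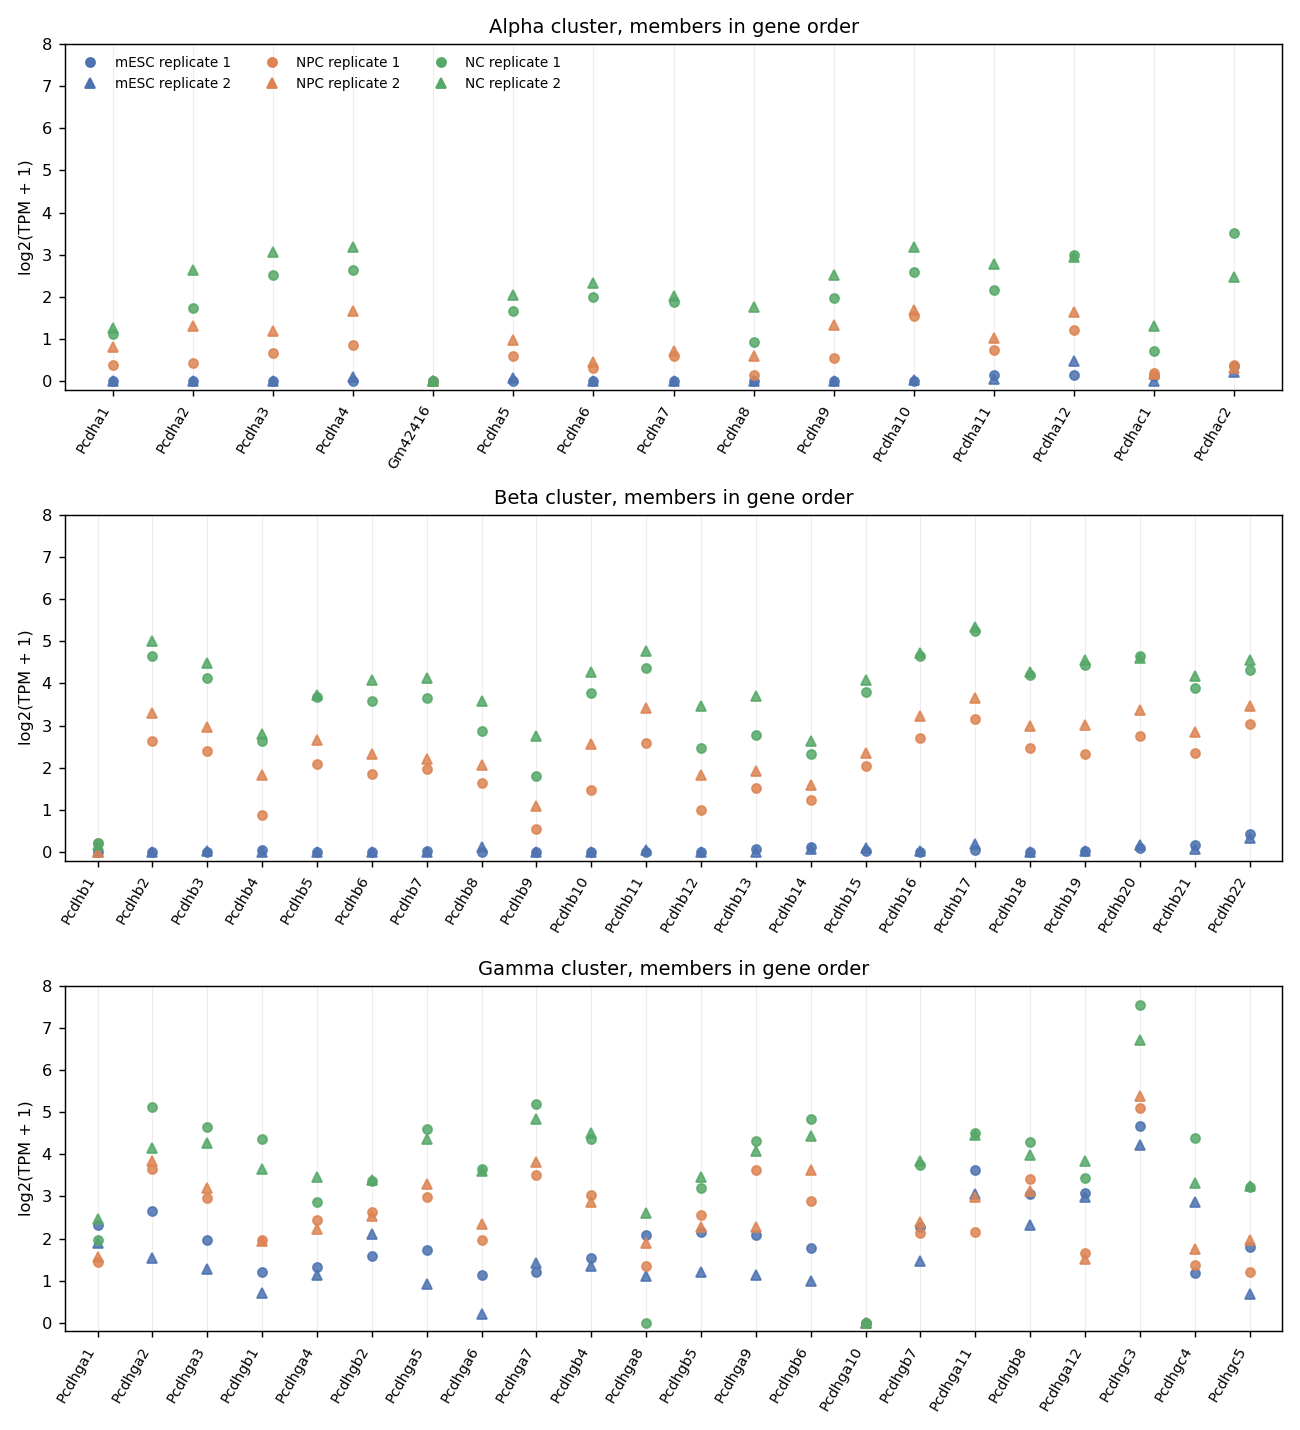
Level of every member, as log2(TPM + 1) (y axis), in each of the 6 libraries, with members in gene order along each cluster (x axis). Colours are stages and shapes are replicates; beta members form 3 separate bands by stage except Pcdhb1, the alpha bands are closer, and several gamma members have mESC points above their NPC points.

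Each member was then tested between stages with limma, a linear model with a spread shared across genes, on log2(TPM + 1) over all 20232 genes at 1 TPM or more in at least 2 of the 6 libraries, and a Benjamini-Hochberg adjusted p under 0.05 was required. Of the members, 54 passed this filter: 12 of 15 alpha, 21 of 22 beta and 21 of 22 gamma rows. The others were Pcdha8, Pcdhac1, the read-through Gm42416, Pcdhb1 and Pcdhga10. Most alpha and beta members passed the filter only through the stages where they are high, so the counts of calls below describe the members and do not support a statement about them. Log2 fold changes on this scale understate changes of low genes, and no fold is given against a stage whose libraries are both listed at 0.

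Between NPC and mESC, 31 of the 54 tested members were higher in NPC and 1 was lower, where 26.0% of all genes tested were called higher and 14.0% lower. By cluster, 3 of 12 tested alpha members, 20 of 21 beta members and 8 of 21 gamma members were higher. The 3 of 12 alpha members are near the 26.0% of all genes tested. The alpha count was 11 with a pseudocount of 0.1, where 27.4% of all genes tested were called higher. It was 7 with only the 4 libraries of these stages (27.4% of all genes), 6 without a trend (25.2%) and 1 after quantile normalization (19.6%). The gamma count was 5 with all genes above 0 in any library tested, where 13% of all genes were called higher. Both counts moved with a library left out, which leaves a stage with 1 library, and both were lower without NPC replicate 2. Counted over all 59 rows with no filter, both NPC libraries lay above both mESC libraries for 13 of 15 alpha, 21 of 22 beta and 14 of 22 gamma rows, beside 45.9% of all genes tested. The median log2 difference was 0.75 over the alpha rows, 2.25 over the beta rows and 0.78 over the gamma rows, against 0.18 over all genes tested. Of 7 tested endoderm markers, Sox17, Foxa2 and Apoa1 were higher in NPC and none lower, and the list of 8 summed to 221 and 147 TPM in NPC and to 172 and 34.5 TPM in mESC, with Alb listed at 0 in all libraries. Their part in the protocadherin levels was not tested.

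The beta members led this comparison. Pcdhb17 was at 7.97 and 11.6 TPM in NPC and at 0.033 and 0.138 TPM in mESC, a log2 fold change of 3.30 ± 0.26 (SE, adjusted p = 0.00023 by limma). It lies at chr18:37484795-37489454 and had the highest level of all beta members in every NPC and NC library. Pcdhb11 was at 5.04 and 9.67 TPM in NPC and at 0 and 0.028 TPM in mESC. Pcdhb16 was at 5.57 and 8.43 TPM in NPC and at 0.0021 and 0.022 TPM in mESC, and Pcdhb20 was at 5.75 and 9.42 TPM in NPC and at 0.069 and 0.122 TPM in mESC. For these genes the NPC and mESC values were far apart and replicate 2 was the higher NPC library each time.

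Pcdhb2 was at 5.22 and 8.79 TPM in NPC and listed at 0 in both mESC libraries. At the far end of the cluster, Pcdhb22 was at 7.25 and 10.04 TPM in NPC and at 0.343 and 0.260 TPM in mESC, the highest beta mean in mESC. At the near end, Pcdhb1 stood apart from its neighbours, with 0.155 and 0 TPM in NPC and 0 in both mESC libraries, and it stayed at 0.153 and 0.131 TPM in NC. The only tested beta member not called was Pcdhb9, at 0.461 and 1.14 TPM in NPC and 0 TPM in mESC (adjusted p = 0.13 by limma).

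Among the alpha members, Pcdha10, Pcdha4 and Pcdha12 were higher in NPC. Pcdha10 was at 1.94 and 2.24 TPM in NPC and at 0.0014 and 0.028 TPM in mESC, a log2 fold change of 1.61 ± 0.29 (SE, adjusted p = 0.0056 by limma). Pcdha4 was at 0.819 and 2.17 TPM in NPC and at 0 and 0.074 TPM in mESC. Pcdha12, the last of the alpha genes before the C-type genes, was at 1.34 and 2.13 TPM in NPC and at 0.101 and 0.395 TPM in mESC. Pcdha1, the first, was at 0.301 and 0.765 TPM in NPC and listed at 0 in mESC, and was not called. The 12 alpha genes other than C-type genes lay between 0.304 and 2.09 TPM by their NPC means.

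The gamma members did not move as a block between mESC and NPC. Pcdhga7 was at 10.3 and 13.1 TPM in NPC and at 1.32 and 1.67 TPM in mESC, a log2 fold change of 2.35 ± 0.25 (SE, adjusted p = 0.00067 by limma). Pcdhgb6 was at 6.47 and 11.3 TPM in NPC and at 2.41 and 0.995 TPM in mESC, and Pcdhga5 was at 6.98 and 8.88 TPM in NPC and at 2.29 and 0.899 TPM in mESC. Pcdhga2 was at 11.6 and 13.4 TPM in NPC and at 5.25 and 1.93 TPM in mESC, and Pcdhgb4 was at 7.22 and 6.26 TPM in NPC and at 1.90 and 1.53 TPM in mESC. None of these 5 genes had an NPC value within its mESC range.

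Pcdhga12 went the other way. It was at 2.14 and 1.88 TPM in NPC and at 7.46 and 6.95 TPM in mESC, a log2 fold change of -1.45 ± 0.25 (SE, adjusted p = 0.0049 by limma), and it was the 1 member called lower. Its neighbour Pcdhga11 was at 3.43 and 6.92 TPM in NPC and at 11.3 and 7.40 TPM in mESC (adjusted p = 0.11 by limma). Pcdhga1 was at 1.71 and 1.94 TPM in NPC and at 3.98 and 2.72 TPM in mESC (adjusted p = 0.15 by limma). For both, the NPC values lay below the mESC values without passing the test. After median-of-ratios scaling 2 members were called lower, Pcdhga12 and Pcdhga11, and after quantile normalization 3, with Pcdhga1 added. These scalings lower the median log2 difference over all genes, which was 0.18 as deposited, to -0.02 and -0.03. They raise the share of all genes called lower, which was 14.0% as deposited, to 19.3% and 18.6%.

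Between NC and NPC, 44 of the 54 tested members were higher in NC and 0 were lower, where 15.2% of all genes tested were called higher and 10.1% lower. At an unadjusted p under 0.05 limma gave 51 members. The share of all genes at this looser threshold was not counted, so the 51 cannot be set against the 15.2%. By cluster, 10 of 12 alpha, 21 of 21 beta and 13 of 21 gamma members were higher. With no filter, both NC libraries lay above both NPC libraries for 14 of 15 alpha, 21 of 22 beta and 20 of 22 gamma rows, beside 40.3% of all genes tested. The median log2 difference was 1.30 over the alpha rows, 1.56 over the beta rows and 1.36 over the gamma rows, against 0.11 over all genes tested. NPC libraries enter both this comparison and the one before it.

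The count of 44 rested on the replicates. Without NPC replicate 1 it was 2 (Pcdhac2 and Pcdhga12, with no beta member), without NPC replicate 2 it was 22 and without NC replicate 2 it was 20, while the share of all genes called higher fell to 2.7%, 5.12% and 9.28%. With all genes listed above 0 in any library tested it was 20, and with a pseudocount of 0.1 it was 28. NC libraries also held RNA of genes that mark other cells: 8 fibroblast and smooth muscle genes summed to 930 and 1114 TPM in NC and to 71.7 and 95.0 TPM in NPC, with 7 of 8 called higher and none at 0 in NC. Among 12 astroglial and oligodendroglial genes, which summed to 255 and 173 TPM in NC and 259 and 255 TPM in NPC, 1 of 9 tested was higher and 3 were lower. In the same fit 15.2% of all genes tested were higher and 10.1% lower, and the 1 of 9 is near that share. The part of the cells that these lists mark in the protocadherin levels was not tested.

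The beta members were spread over a narrow range of ratios. NC means of the 20 beta genes above 1 TPM in NPC were 2.40 (Pcdhb22) to 4.60 (Pcdhb10) times their NPC means. Pcdhb17 was at 36.9 and 39.3 TPM in NC and at 7.97 and 11.6 TPM in NPC, a log2 fold change of 1.88 ± 0.26 (SE, adjusted p = 0.0057 by limma). Pcdhb10 was at 12.7 and 18.3 TPM in NC and at 1.76 and 4.96 TPM in NPC, a log2 fold change of 2.00 ± 0.41 (SE, adjusted p = 0.017 by limma). Both genes had NC values above all their NPC values, and the Pcdhb10 replicates lay further apart.

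Pcdhb2, the first beta gene after Pcdhb1, was at 23.9 and 31.1 TPM in NC and at 5.22 and 8.79 TPM in NPC. Pcdhb19 was at 20.6 and 22.4 TPM in NC and at 4.004 and 7.03 TPM in NPC. Pcdhb7 was at 11.6 and 16.4 TPM in NC and at 2.91 and 3.62 TPM in NPC. Pcdhb22 had the smallest ratio of these genes, with 18.9 and 22.6 TPM in NC and 7.25 and 10.04 TPM in NPC. All 4 had both NC values above both NPC values.

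In the alpha cluster the largest difference between NC and NPC was that of Pcdhac2, given with the C-type genes below. Pcdha3 was at 4.78 and 7.34 TPM in NC and at 0.582 and 1.28 TPM in NPC, a log2 fold change of 1.87 ± 0.31 (SE, adjusted p = 0.0090 by limma). Pcdha6 was at 3.00 and 4.06 TPM in NC and at 0.237 and 0.372 TPM in NPC. Pcdha4 was at 5.20 and 8.10 TPM in NC and at 0.819 and 2.17 TPM in NPC. Pcdha11 was at 3.50 and 5.85 TPM in NC and at 0.684 and 1.03 TPM in NPC, though 78.7% of its 100-base windows also lie in other gene models, the antisense Gm10545 among them. These genes did not overlap between the stages, and replicate 2 was the higher NC library for each.

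Pcdha12 was at 6.96 and 6.69 TPM in NC and at 1.34 and 2.13 TPM in NPC. Pcdha10 was at 5.04 and 8.09 TPM in NC and at 1.94 and 2.24 TPM in NPC. Pcdha1 was at 1.19 and 1.41 TPM in NC and at 0.301 and 0.765 TPM in NPC and was not called (adjusted p = 0.13 by limma), nor was Pcdha2 (adjusted p = 0.060 by limma, and 0.039 with a replicate block). By their NC means the 12 alpha genes other than C-type genes ran from 1.30 TPM for Pcdha1 to 6.82 TPM for Pcdha12, with a median of 3.82 TPM.

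In the gamma cluster, genes of the A and B classes are interleaved. Pcdhgb1 was at 19.5 and 11.6 TPM in NC and at 2.91 and 2.83 TPM in NPC, a log2 fold change of 2.05 ± 0.33 (SE, adjusted p = 0.0084 by limma). Pcdhga12 was at 9.84 and 13.3 TPM in NC and at 2.14 and 1.88 TPM in NPC, a log2 fold change of 2.05 ± 0.25 (SE, adjusted p = 0.0043 by limma). Pcdhga11 was at 21.6 and 21.0 TPM in NC and at 3.43 and 6.92 TPM in NPC. So both genes with NPC values below their mESC values at the end of the gamma A run were higher in NC than in NPC. Pcdhga7 was at 35.4 and 27.7 TPM in NC and at 10.3 and 13.1 TPM in NPC.

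The 8 tested gamma members not called between NC and NPC were Pcdhga1, Pcdhga2, Pcdhga4, Pcdhga8, Pcdhga9, Pcdhgb2, Pcdhgb5 and Pcdhgb8. Pcdhga1 was at 2.90 and 4.48 TPM in NC and at 1.71 and 1.94 TPM in NPC. Pcdhgb8 was at 18.7 and 14.9 TPM in NC and at 9.64 and 7.74 TPM in NPC (adjusted p = 0.081 by limma). Pcdhga2 was at 33.9 and 16.8 TPM in NC and at 11.6 and 13.4 TPM in NPC, with a wide gap between its NC replicates. Pcdhga8 was listed at 0 in NC replicate 1 and stood at 5.11 TPM in replicate 2, beside 1.54 and 2.696 TPM in NPC. Pcdhga10 was listed at 0 in all 6 libraries, and 97.9% of its 100-base windows lie in other gene models.

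**Figure D3:**
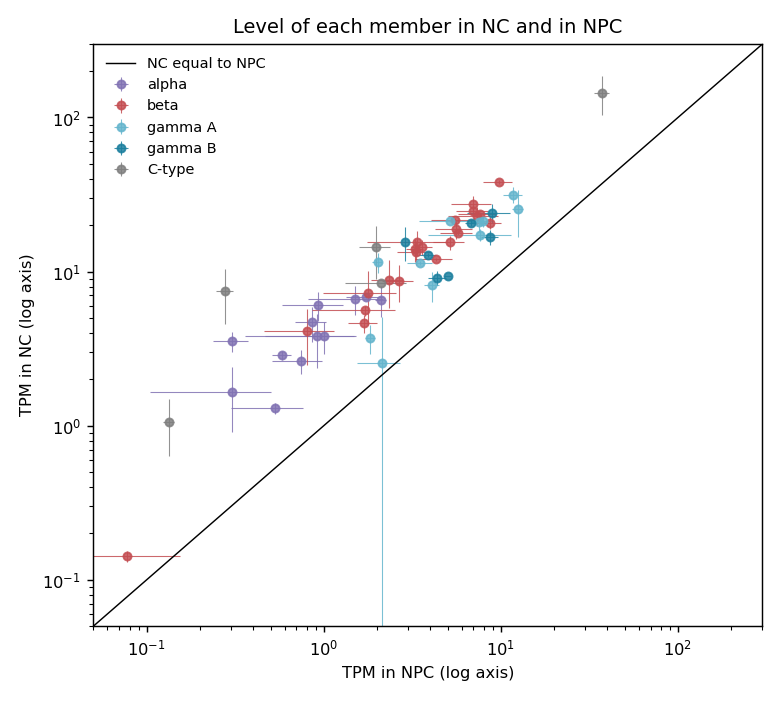
Mean TPM of each member in NC (y axis, log) and in NPC (x axis, log), with lines from the lower to the higher replicate and colours for the class. Members lie above the line of equal levels, the beta members in a band parallel to it; the long line downwards is Pcdhga8, listed at 0 in NC replicate 1, and members listed at 0 in both NPC libraries are left out.

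Between NC and mESC, 51 of the 54 tested members were higher in NC and 0 were lower, where 37.8% of all genes tested were called higher and 22.1% lower. At an unadjusted p under 0.05 limma gave 52 members. The share of all genes at this threshold was not counted, so the 52 cannot be set against the 37.8%. All 12 tested alpha and all 21 tested beta members were higher, and 18 of 21 gamma members. With no filter, both NC libraries lay above both mESC libraries for 14 of 15 alpha, 22 of 22 beta and 19 of 22 gamma rows, beside 48.5% of all genes tested. The median log2 difference was 2.20 over the alpha rows, 3.90 over the beta rows and 1.97 over the gamma rows, against 0.31 over all genes tested.

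Pcdhb17 had the largest log2 fold change of NC against mESC, 5.17 ± 0.26 (SE, adjusted p = 2.8e-05 by limma). Pcdhb2, for which no fold is given because both mESC libraries are listed at 0, was at 23.9 and 31.1 TPM in NC (adjusted p = 5.5e-05 by limma). Pcdhb16 was at 24.3 and 25.5 TPM in NC against 0.0021 and 0.022 TPM in mESC, Pcdhb11 at 19.8 and 26.2 TPM in NC against 0 and 0.028 TPM in mESC, and Pcdhb20 at 24.0 and 23.3 TPM in NC against 0.069 and 0.122 TPM in mESC. Among alpha genes Pcdha10 had the largest log2 fold change, 2.87 ± 0.29 (SE, adjusted p = 0.00031 by limma).

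In gamma the largest was that of Pcdhga7, 3.70 ± 0.25 (SE, adjusted p = 6.4e-05 by limma). Pcdhgb6 was at 27.5 and 20.6 TPM in NC and at 2.41 and 0.995 TPM in mESC, Pcdhga5 at 23.1 and 19.4 TPM in NC and at 2.29 and 0.899 TPM in mESC, and Pcdhgb4 at 19.7 and 21.7 TPM in NC and at 1.90 and 1.53 TPM in mESC. Pcdhga1, Pcdhga8 and Pcdhga12 were not called. Pcdhga12 was at 9.84 and 13.3 TPM in NC and at 7.46 and 6.95 TPM in mESC (adjusted p = 0.076 by limma), so its NC values were above its mESC values by less than the test required. Pcdhga1 was at 2.90 and 4.48 TPM in NC and at 3.98 and 2.72 TPM in mESC, which overlap.

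**Figure D4:**
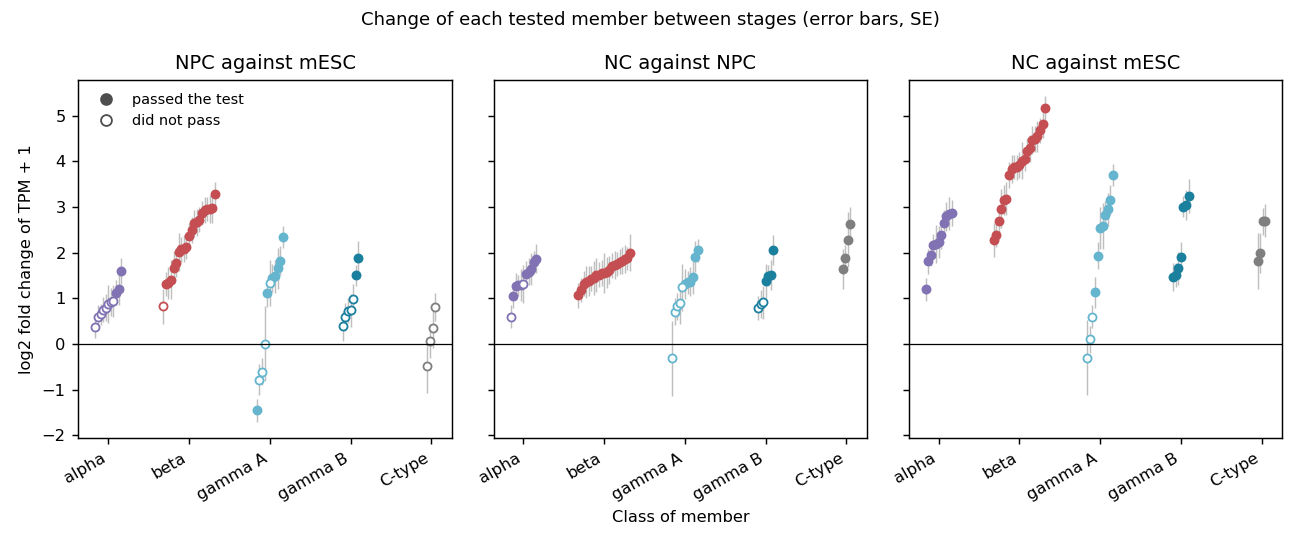
Log2 fold change of TPM + 1 (y axis) of each of the 54 tested members in the 3 comparisons, by class (x axis), with SE from limma; filled points passed an adjusted p of 0.05. Of the beta members 20 of 21 passed between NPC and mESC, while none of the tested C-type members did; the C-type members passed in both comparisons of NC.

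The C-type genes lie at the ends of the alpha and gamma clusters, and none of the 4 tested was called between NPC and mESC. Pcdhgc3, whose product binds the scaffold Axin1 and promotes dendrite branching, had the highest level of any member in all 6 libraries, with 24.3 and 17.5 TPM in mESC, 33.5 and 41.0 TPM in NPC, and 185 and 104 TPM in NC. It held 25.9% and 27.1% of the gamma sum in the mESC libraries, 24.0% and 26.3% in the NPC libraries, and 35.8% and 27.0% in the NC libraries. NPC was above mESC with an adjusted p of 0.073, and NC was above NPC by a log2 fold change of 1.88 ± 0.30 (SE, adjusted p = 0.0083), both by limma. Without Pcdhgc3 the gamma sum was 58.5 ± 15.8 TPM in mESC, 110 ± 6.30 TPM in NPC and 306 ± 34.8 TPM in NC (SD, n = 2 each), in the same order.

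Pcdhac2, needed for the even spacing of serotonergic axons in mice, was at 0.280 and 0.156 TPM in mESC, 0.307 and 0.247 TPM in NPC, and 10.4 and 4.54 TPM in NC. It was higher in NC than in NPC by a log2 fold change of 2.64 ± 0.37 (SE, adjusted p = 0.0058 by limma), while the difference between NPC and mESC was 0.07 ± 0.37 (SE, adjusted p = 0.90 by limma). Pcdhac1 was at 0.095 and 0.013 TPM in mESC, 0.143 and 0.123 TPM in NPC, and 0.636 and 1.48 TPM in NC, and did not pass the filter. Both its NPC values lay above both its mESC values.

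Pcdhgc4, which neurons need for survival, was at 1.27 and 6.35 TPM in mESC, 1.59 and 2.36 TPM in NPC, and 19.8 and 8.96 TPM in NC. Its mESC libraries were far apart and enclosed both NPC values. NC was above NPC by a log2 fold change of 2.29 ± 0.61 (SE, adjusted p = 0.037 by limma). Pcdhgc5 was at 2.5002 and 0.601 TPM in mESC, 1.32 and 2.90 TPM in NPC, and 8.38 and 8.46 TPM in NC, and NC was above NPC by 1.65 ± 0.44 (SE, adjusted p = 0.038 by limma, and 0.051 with a replicate block) on the log2 scale. The order of the C-type genes by their NC means was Pcdhgc3, Pcdhgc4, Pcdhgc5, Pcdhac2 and Pcdhac1, and of these Pcdhgc5 and Pcdhac2 overlapped, as did Pcdhgc4 and Pcdhac2.

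**Figure D5:**
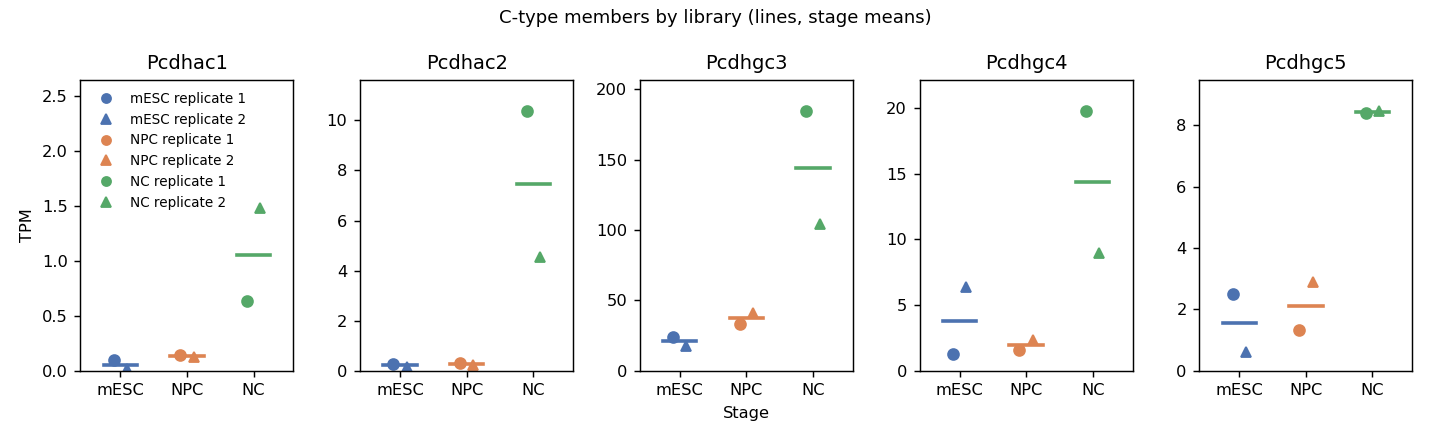
TPM (y axis, linear from 0, a scale for each panel) of the 5 C-type members in the 6 libraries at the 3 stages (x axis); lines are stage means. Both NC values lie above all earlier values for each gene, and for Pcdhac2, Pcdhgc3 and Pcdhgc4 NC replicate 1 is the higher.

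The C-type genes summed to 224 TPM in NC replicate 1 and 128 TPM in replicate 2, mainly through Pcdhgc3 at 185 and 104 TPM, while Pcdhac1 was higher in replicate 2 and Pcdhgc5 nearly equal. NC replicate 1 held less of the beta genes and of the alpha genes other than C-type genes, with 304 and 40.7 TPM against 376 and 60.1 TPM. The gamma A genes summed to 188 and 163 TPM and the gamma B genes to 115 and 102 TPM in these libraries. Glial genes differed too, and Aldh1l1, an astrocyte marker, was at 59.3 and 1.89 TPM, Gfap at 9.72 and 0.598 TPM and Aqp4 at 0.613 and 0 TPM in NC replicates 1 and 2. Their part in the difference between the replicates was not tested.

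Within the beta cluster the order of the members was nearly the same in NPC and NC. Across the 22 beta rows, Spearman's rho was 0.96 between the NPC replicates and 0.97 between the NC replicates, and it ran from 0.92 to 0.96 between a library of NC and a library of NPC. Across the 14 alpha rows without the read-through, rho was 0.82 between the NPC replicates, 0.78 between the NC replicates and 0.46 to 0.82 between NC and NPC libraries. Across the 22 gamma rows it was 0.85, 0.87 and 0.71 to 0.82. These values describe genes within libraries, which share gene models and lengths and are not independent.

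The level was spread over many members. Expressed as the number of equally abundant members that would give the same concentration (the inverse of the summed squared shares), the beta cluster had 15.9 and 16.6 in NPC and 15.7 and 17.2 in NC out of 22 rows. The alpha cluster had 8.43 and 10.04 in NPC and 9.51 and 11.5 in NC. For gamma, where Pcdhgc3 weighs most, it was 9.20 and 8.27 in the mESC libraries, 10.2 and 9.39 in the NPC libraries, and 6.43 and 9.60 in the NC libraries. Without Pcdhgc3 it was 13.2 and 11.1 in the mESC libraries, 14.4 and 14.5 in the NPC libraries, and 15.1 and 17.0 in the NC libraries. In alpha and gamma these numbers rest in part on how StringTie divided the reads of the constant exons, and in beta least. Bulk libraries do not show how many members a single cell expressed.

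Other gene models in the interval also carried RNA. Of 26 such models, 15 lie on the opposite strand, and 5 of these have exons over a member and reached 1 TPM in some library. Gm26672, opposite Pcdhga10, Pcdhgb7, Pcdhga11 and Pcdhga12, was at 3.20 and 1.79 TPM in mESC, 5.23 and 5.27 TPM in NPC, and 15.2 and 16.9 TPM in NC. Gm37446 lies opposite Pcdhb12, over 62.3% of whose windows other models run, and was at 0 and 0.00049 TPM in mESC, 1.70 and 3.63 TPM in NPC, and 6.32 and 9.25 TPM in NC. No source used here gives the strand setting, so reads of these models and of the members under them may not have been kept apart. Taf7, a neighbour between the beta and gamma clusters, was at 63.98 and 81.7 TPM in mESC, 29.5 and 23.6 TPM in NPC, and 12.9 and 14.8 TPM in NC, so not all genes of the interval were highest in NC.

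Of 19 chromatin and DNA methylation genes, 7 were higher and 7 lower in NPC than in mESC, 1 was higher and 3 lower in NC than in NPC, and 7 were higher and 8 lower in NC than in mESC. Of all genes tested, 26.0% were higher and 14.0% lower in NPC than in mESC, 15.2% and 10.1% in NC than in NPC, and 37.8% and 22.1% in NC than in mESC, and the 7 of 19 higher in NC than in mESC are near that share. Dnmt3b, the methyltransferase that sets the pattern of clustered protocadherin promoters in mouse embryos, was at 112 and 112 TPM in mESC, 21.6 and 17.2 TPM in NPC, and 6.70 and 7.76 TPM in NC. Its cofactor gene Dnmt3l was at 141 and 84.8 TPM in mESC, at 0.294 and 0 TPM in NPC and listed at 0 in NC. Tet1, which oxidises methylated cytosine, was at 196 and 200 TPM in mESC, 17.1 and 20.8 TPM in NPC, and 13.6 and 16.6 TPM in NC, and Tet3, of the same family, was at 8.72 and 8.65 TPM in mESC, 54.8 and 60.4 TPM in NPC, and 71.6 and 94.6 TPM in NC.

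Of 13 measured genes for CTCF and cohesin, 3 were higher and 1 lower in NPC than in mESC, 0 were higher and 3 lower in NC than in NPC, and 4 were higher and 4 lower in NC than in mESC. The counts of higher genes were near or below the shares of all genes tested, 26.0%, 15.2% and 37.8%. The shares of all genes tested called lower were 14.0%, 10.1% and 22.1%. The 3 lower in NC than in NPC were Esco2, Smc1a and Rad21. Rad21, the cohesin subunit cut when sister chromatids separate, was at 167 and 171 TPM in NC and 235 and 226 TPM in NPC, a log2 fold change of -0.44 ± 0.12 (SE, adjusted p = 0.037 by limma). Esco2, which acetylates cohesin during DNA replication, was at 6.67 and 7.99 TPM in NC and at 25.3 and 23.8 TPM in NPC. Ctcf itself was at 102 and 121 TPM in mESC, 110 and 110 TPM in NPC, and 78.2 and 90.3 TPM in NC and was not called.

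Of 12 protocadherins outside the clusters, 11 were tested. In NPC against mESC 8 were higher, in NC against NPC 7 and in NC against mESC 10, with none lower. Of all genes tested, 26.0%, 15.2% and 37.8% were higher and 14.0%, 10.1% and 22.1% lower. Their median log2 fold changes were 1.34, 1.15 and 3.61. The largest between NC and NPC was that of Pcdh9, at 22.9 and 23.6 TPM in NC and 1.26 and 2.23 TPM in NPC, followed by Pcdh17, at 16.1 and 9.58 TPM in NC and 1.46 and 1.82 TPM in NPC. Both of these had NC values well above their NPC values. Pcdh8 was at 14.3 and 32.1 TPM in NPC and at 0.233 and 0.140 TPM in mESC.

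Of 22 genes for partners and effectors of the clustered protocadherins, 11 were higher and 1 lower in NPC than in mESC, 3 were higher and 1 lower in NC than in NPC, and 14 were higher and 2 lower in NC than in mESC. The shares of all genes tested called higher were 26.0%, 15.2% and 37.8%, and the 3 of 22 in NC against NPC are near theirs. The shares called lower were 14.0%, 10.1% and 22.1%. Ret, a receptor kinase that clustered protocadherins bind, was at 0.862 and 0.747 TPM in mESC, 38.5 and 29.5 TPM in NPC, and 14.3 and 11.7 TPM in NC. Cyfip2, of the WAVE complex that alpha protocadherins recruit, was at 19.0 and 16.6 TPM in mESC, 50.4 and 57.7 TPM in NPC, and 187 and 155 TPM in NC. Marcks, a membrane protein that gamma protocadherins act on in dendrites, was at 25.8 and 29.2 TPM in mESC, 214 and 228 TPM in NPC, and 391 and 286 TPM in NC. Ret was highest in NPC and Cyfip2 in NC, while the difference of Marcks between NC and NPC did not pass the test (adjusted p = 0.054 by limma).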

How the data were processed

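RNA enriched for poly(A) and depleted of rRNA went into an Ion Torrent total RNA kit, per the labels' protocols. The submitters' processing notes name STAR 2.7.9a and the build mm10, StringTie 2.1.5, cutadapt 3.4 and FastQC, besides DESeq2 and R 4.0.3. No source used here gives the annotation release, the strand setting or the treatment of reads with several positions. The deposited TPM values are StringTie's length-scaled abundances set to the same sum in each library, and the deposited FPKM values are the same abundances per aligned base of the library. Coverage, as deposited, is the mean number of reads over a gene's exonic bases and is not scaled to the library. The tables hold no read counts, so no counting interval can be given and precision comes from the 2 replicates of a stage. Aligned bases were estimated from the most common ratio of coverage to FPKM in each library. Of the genes at 1 FPKM or more, 38.3% to 39.7% lay within 0.1% of it.

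Repeated lines of a gene ID were summed. Genes reaching 1 TPM in 2 or more of the 6 libraries were fitted with limma 3.58.1 in R 4.3.3 (lmFit, eBayes with a trend) on log2(TPM + 1), 1 coefficient per stage, 3 residual degrees of freedom, two-sided, with Benjamini-Hochberg adjustment over all 20232 genes. The script was tested on simulated data. The members named by rule were the C-type genes and the first and last gene of each run. In each cluster the rule added the 5 called genes per comparison with the largest change and the 3 with the highest mean. Their values are given in every library, except that mESC values are left out for Pcdha3, Pcdha6, Pcdha11, Pcdhb7, Pcdhb10, Pcdhb19, Pcdhgb1 and Pcdhgb8. In other lists the 3 called genes with the largest change could be named. Slc17a6, Slc17a7, Gad1, Gad2, some of the neural progenitor genes, the astrocyte markers, Taf7, Ctcf, Pou5f1 and the models Gm26672 and Gm37446 fall outside this rule. So do members named because they were not called. All of these were chosen after their values were seen. The members, lists and tests were chosen with earlier results of these data known. Exons and shared bases come from GENCODE vM21, RefSeq served for names, and 100-base windows of a member's exons were compared with all other models. The alternatives were another pseudocount, other filters, median-of-ratios and quantile scaling, FPKM, a replicate block, fits to 4 libraries, no trend, and each library left out.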

Additional observations from a re-analysis of the deposited data

How the results depend on the processing

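Between NPC and mESC, 31 of 54 tested members were called higher, beside 26.0% of all genes tested. This count moved both ways with a library left out. The 1 called lower stayed at 1 with a library left out, and was 2 after median-of-ratios scaling and 3 after quantile normalization. Between NC and NPC, 44 were called higher, 28 with a pseudocount of 0.1, 20 with all genes above 0 in any library tested, and 2 to 39 with a library left out. Between NC and mESC, 51 of 54 tested members were called higher, beside 37.8% of all genes tested, and 0 lower. The count of 51 fell with each library left out. Without NC replicate 2, Pcdhga8 had a log2 fold change of -1.61 in this comparison. With either NC library left out, 49 members were tested in place of 54. The shares of all genes moved too. In NPC against mESC the share called lower was 14.0%, 19.3% after median-of-ratios scaling and 18.6% after quantile normalization. In NC against NPC the share called higher was 15.2%, 13.2% with a pseudocount of 0.1 and 5.85% with the wider filter. The cause of these changes was not tested. The wider filter raises the number of genes over which p is adjusted. Leaving out an NPC library leaves that stage with 1 library, assumed to vary like the other stages.

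Same-numbered libraries did not deviate together (correlation of replicate differences 0.05 for mESC and NPC, -0.08 for mESC and NC, -0.07 for NPC and NC). With a replicate block 33 members were called higher in NPC than in mESC, 44 in NC than in NPC and 51 in NC than in mESC. The shares of all genes called higher were 23.6%, 12.5% and 36.3% with the block, against 26.0%, 15.2% and 37.8% without it. The 44 members were not the same genes: Pcdhgc5 and Pcdhgb6 were lost, and Pcdha2 and Pcdhga9 gained.

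Directions turned for some members, none of them called in that comparison in the main fit. Their main values ran from -0.47 for Pcdhgc4 in NPC against mESC to 0.60 for Pcdhga12 in NC against mESC. Pcdhac2 in NPC against mESC was -0.35 after quantile normalization and -0.0034 to 0.14 with a library left out. Pcdhga1 in NC against mESC was -0.14 after median-of-ratios scaling, -0.47 after quantile normalization, -0.086 with FPKM and -0.14 to 0.35 with a library left out. Pcdhga8 in NPC against mESC was -0.14, -0.30 and -0.0523 under these settings and -0.47 to 0.49 with a library left out, in NC against NPC -1.62 to 1.00 and in NC against mESC -1.61 to 1.01. Pcdhga12 in NC against mESC was -0.0004 after quantile normalization. With a library left out, NPC against mESC ran from -0.0072 to 0.80 for Pcdhgb7, -1.32 to 0.38 for Pcdhgc4 and -0.22 to 0.91 for Pcdhgc5. All these are log2 fold changes.

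Alpha and beta levels in mESC rest on a mean depth below 1 read, so differences between these members in mESC are imprecise, although some, such as Pcdhb22, were above 0 in both libraries. FPKM sums kept the order of the stages in each cluster.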
